A study of Homo sapiens with 6 samples.

Results

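The genes of the mitochondrial matrix folding and degradation machinery, led by HSPD1, were followed in A172 cells, a human glioblastoma line, after transfection of miR-324 duplexes. They were taken by gene symbol as 9 of the 20979 symbols listed in at least 1 library: HSPD1, HSPE1, HSPA9, TRAP1, GRPEL1, DNAJA3, LONP1, CLPP and CLPX. All 9 were listed in all 6 libraries and are among the 13400 genes that passed the expression minimum, a mean TPM of 1 over the libraries. HSPD1 was singled out because its level in these libraries was already known to differ between groups, so its values are given as a description without a test. The other 8 were chosen by function.

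A first group of cells was given the 5p duplex of miR-324, another its 3p.1 duplex, and the last a control miRNA, all in the same line and with the same lipid reagent. RNA was taken 1 day after transfection, enriched for poly(A) and read as stranded pairs of 100 bp, with 2 libraries per group. Each duplex carries both strands, and which strand acted was not measured. Nothing in the labels states that replicates were grown as separate cultures. The p-values rest on the spread between the 2 libraries within each group, pooled over the 3 groups and moderated across genes. That spread may be technical.

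Values are TPM, a share of transcripts after scaling for transcript length, so levels of different genes can be set side by side, but the sequencing depth is unknown. Of 10 markers of glioma cells 6 reached 1 TPM in every library, with VIM at 4788 to 5910 TPM and SPARC at 6240 to 10284 TPM, while GFAP stayed at 0.05 to 0.25 TPM and S100B and AQP4 were not listed. Summed TPM of these markers was 12907 and 16862 with the 5p duplex, 12256 and 15946 with the 3p.1 duplex, and 12344 and 16819 in control. In each group this sum, like SPARC, was higher in replicate 2 than in replicate 1. Of 4 neuron, 3 epithelium and 4 blood and endothelium markers, 2 of each list reached 1 TPM in every library. The highest were TUBB3 at 246 to 302 TPM and CD68. CD68 stood at 54.5 and 60.2 TPM with the 5p duplex, 42.3 and 32.7 TPM with the 3p.1 duplex, and 53.4 and 57.0 TPM in control. Both controls stood above all duplex libraries in interferon genes, control replicate 2 the most. The median of 10 such genes was 14.7 and 13.3 TPM with the 5p duplex and 11.7 and 13.8 TPM with the 3p.1 duplex. It was 80.7 and 289 TPM in control replicates 1 and 2. All 10 were lower with either duplex than in control, so each comparison with control includes this difference. In bulk libraries, a shift in the makeup of the cells and a shift in RNA per cell cannot be told apart.

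As background, most mitochondrial proteins are made in the cytosol, threaded into the matrix unfolded and folded there. HSPA9 (mortalin), the matrix HSP70, pulls the chain in and folds it, with DNAJA3 as its J-domain partner and GRPEL1 as its nucleotide exchange factor. HSPD1 (HSP60) forms the barrel-shaped chaperonin and HSPE1 (HSP10) its lid, and their genes lie head to head with a shared promoter region. TRAP1 is the mitochondrial HSP90. LONP1 is a protease that degrades damaged matrix proteins, and CLPX unfolds substrates for the peptidase CLPP.

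The sequences of the transfected strands are not in the labels, so the RefSeq sequences of the MIR324 arms (GRCh38.p14, chromosome 17, minus strand) are shown as the reference for the target words sought below. Capitals mark the seed, bases 2 to 8.
hsa-miR-324-5p: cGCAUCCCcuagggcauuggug
hsa-miR-324-3p: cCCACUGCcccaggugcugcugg
The 5p seed pairs with the word GGGATGC, and the unshifted 3p seed pairs with GCAGTGG. Because the exact start of the 3p.1 strand is not known, 3p starts shifted by 1, 2 and 3 bases were searched too. The word is GGCAGTG for the start shifted by 1 base, GGGCAGT for the start shifted by 2 bases and GGGGCAG for the start shifted by 3 bases.

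HSPD1 stood at 485 and 474 TPM with the 5p duplex, 1112 and 1204 TPM with the 3p.1 duplex, and 977 and 1105 TPM in control. Both 5p duplex libraries lay below all 4 others, and both 3p.1 duplex libraries lay above both controls. The mean was 479 ± 7.80 TPM with the 5p duplex and 1041 ± 91.0 TPM in control (SD, n = 2 each), and the 5p duplex to control ratio of single libraries ran from 0.428 to 0.496 over the 4 pairs. On the log2(TPM + 1) scale of the limma model the difference was -1.12. Between the 5p duplex and the 3p.1 duplex (1158 ± 65.2 TPM) it was -1.27, and between the 3p.1 duplex and control 0.16. Ordered by log2 fold change, HSPD1 was number 126 from the lowest of 13400 genes for 5p duplex against control, and number 49 for 5p duplex against 3p.1 duplex.

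HSPD1 is among the most abundant transcripts of these cells. It ranked 311 and 309 among all symbols with the 5p duplex, 134 and 116 with the 3p.1 duplex, and 148 and 126 in control. It made up 23.3% and 23.0% of the summed TPM of the 9 genes with the 5p duplex, 42.1% and 42.3% with the 3p.1 duplex, and 39.6% and 42.5% in control. The other 8 genes together held 1599 and 1586 TPM with the 5p duplex, 1527 and 1642 TPM with the 3p.1 duplex, and 1490 and 1497 TPM in control. The interferon genes were low with both duplexes, while HSPD1 was low with the 5p duplex only. Whether HSPD1 and the interferon genes are linked was not tested. The log2 difference of HSPD1 between 5p duplex and control was -1.03 without control replicate 2 and -1.20 without control replicate 1.

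**Figure D1:**
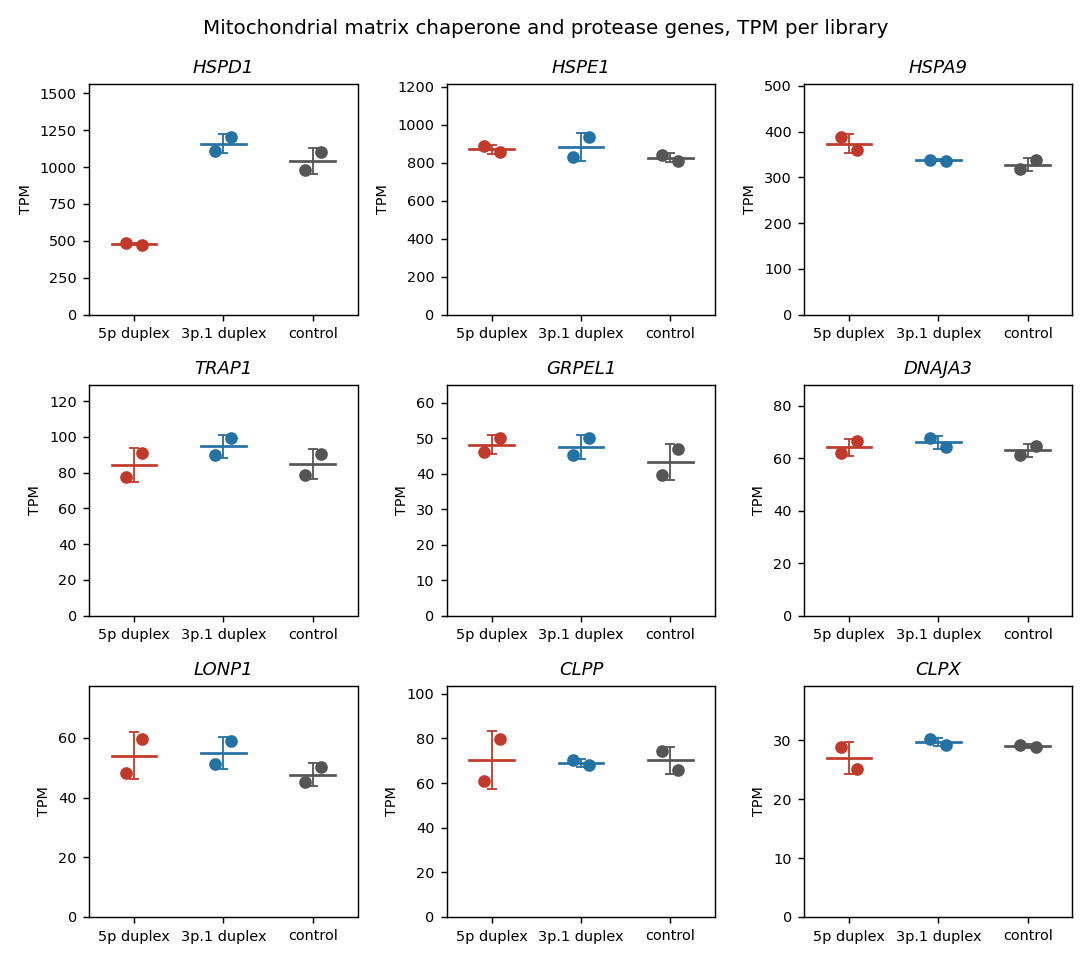
TPM (vertical axes, from 0) of the 9 genes in each library, with the 5p duplex, 3p.1 duplex and control groups from left to right; points are libraries, horizontal lines group means and bars 1 SD (n = 2). HSPD1 lies at 474 and 485 TPM with the 5p duplex and at 977 to 1204 TPM in the other 4 libraries, and the other 8 genes stay within a range of 1.32-fold or less over all 6 libraries.

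HSPE1, which encodes the co-chaperonin lid, stood at 887 and 855 TPM with the 5p duplex, 833 and 937 TPM with the 3p.1 duplex, and 843 and 812 TPM in control. The 5p duplex libraries lay just above the controls and inside the range of the 3p.1 duplex libraries. Its difference between 5p duplex and control was 0.07 (SE 0.09, 95% interval -0.15 to 0.30, adjusted p = 0.890), and between 3p.1 duplex and control 0.09 (SE 0.09, adjusted p = 0.939). Between the duplexes it was -0.02 (interval -0.25 to 0.21, adjusted p = 0.977). All adjusted p-values here come from limma, two-sided, with Benjamini-Hochberg adjustment over 13400 genes, and a gene was called changed under 0.05.

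The ratio of HSPD1 to HSPE1 within a library does not depend on how libraries were scaled. It was 0.547 and 0.554 with the 5p duplex, 1.34 and 1.29 with the 3p.1 duplex, and 1.16 and 1.36 in control. HSPD1 was thus the lower of the chaperonin pair in both 5p duplex libraries and the higher in the other 4. The ratio of HSPD1 to HSPA9 was 1.25 and 1.32 with the 5p duplex, 3.28 and 3.58 with the 3p.1 duplex, and 3.07 and 3.27 in control. The ratio of HSPA9 to its exchange factor GRPEL1, which does not involve HSPD1, overlapped between all groups (6.71 to 8.41).

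**Figure D2:**
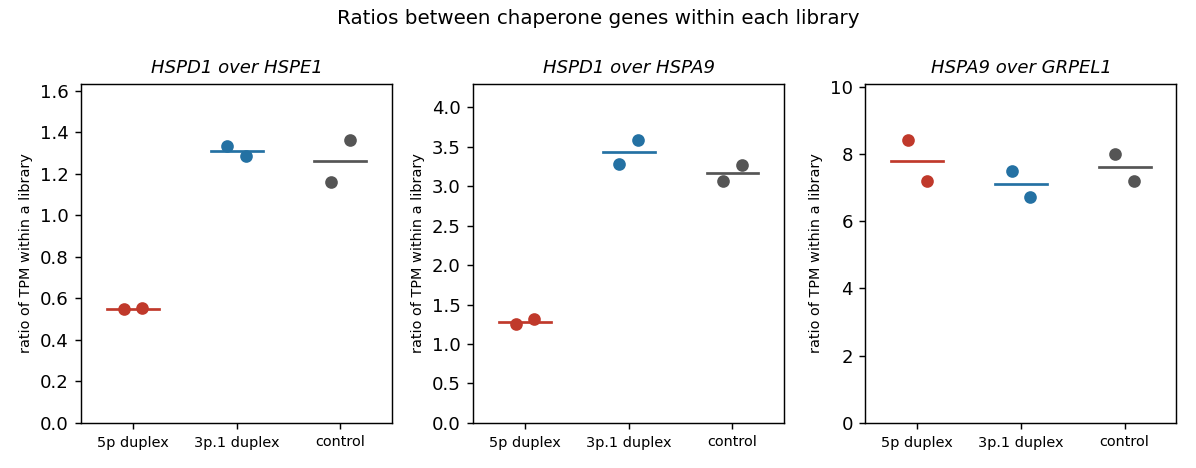
Ratio of TPM of a pair of genes within each library (vertical axes, from 0), with the 5p duplex, 3p.1 duplex and control groups from left to right; points are libraries and lines group means. HSPD1 over HSPE1 lies at 0.547 and 0.554 with the 5p duplex and at 1.16 to 1.36 elsewhere, while HSPA9 over GRPEL1 overlaps between groups.

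GENCODE 29 (GRCh38) gives HSPD1 the minus strand of chromosome 2, bases 197486581 to 197516737, and HSPE1 the plus strand, bases 197499994 to 197503457. RefSeq places the HSPE1 start 105 bases from 1 start of HSPD1 and 539 bases from another. The window of 300 bases around the HSPE1 start, at chr2:197500129-197500428 on the plus strand (GRCh38.p14), holds that start and the nearer start of HSPD1. It is shown because it lies between a gene that was low with the 5p duplex and a neighbour that was not. Capitals mark the word of the factor NRF1 (here GCGCCTGCGC, found on the minus strand) and an E-box (CACGTG), searched on both strands, which do not overlap; the HSPE1 start is base 251 and the HSPD1 start base 146.
HSPE1 and HSPD1 promoter: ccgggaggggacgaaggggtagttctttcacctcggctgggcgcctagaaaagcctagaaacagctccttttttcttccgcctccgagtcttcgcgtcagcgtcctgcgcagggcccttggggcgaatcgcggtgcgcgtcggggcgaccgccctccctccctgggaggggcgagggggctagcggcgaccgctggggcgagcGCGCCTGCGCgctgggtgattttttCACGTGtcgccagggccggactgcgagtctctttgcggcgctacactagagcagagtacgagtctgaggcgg
The NRF1 word is held by 5.78% and the E-box by 7.26% of 35116 RefSeq promoter windows of this length. An SP1 word (GGGCGG, here CCGCCC at bases 149 to 154) is in this window too, not in capitals, and in 45% of windows. The heat shock element GAANNTTC, in 6.77% of windows, was not in this window, though 1 window of HSPD1 held it, nor was the amino acid response element TGATGNAA, in 3.62%. Promoter windows matched 7 of the 9 genes: the NRF1 word was also present for LONP1, DNAJA3 and CLPX, and the E-box for LONP1 and HSPA9. A match is a description of letters only.

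Target words were sought in the longest annotated 3′ untranslated region of each gene and in its longest annotated coding sequence, each chosen separately (GENCODE 29). A site of 7 or 8 matching bases for the 5p seed was in the 3′ untranslated region of 14.6% of 11747 genes with one, and in that of 1 of the 9 genes here, DNAJA3. HSPD1, with a region of 465 bases, had none, and none of its 8 annotated coding transcripts carried such a site anywhere. Its coding sequence held the 6-base core GGATGC at a pair of positions, on chromosome 2 at 197493468 to 197493473 and 197487173 to 197487178. This core is not particular to HSPD1. It was also in the coding sequences of HSPA9, TRAP1, DNAJA3 and CLPX, and at a pair of positions in that of LONP1. The share of all genes that hold it was not taken. The 3′ untranslated region of HSPD1 held 1 word for the 3p start shifted by 1 base, GGCAGTG, at 197486988 to 197486994. Such a site of 7 or 8 bases is held there by 30.9% of genes. Its coding sequence held 1 site of 7 bases for the unshifted 3p seed, as that of 37.9% of genes did. In the 3′ untranslated regions, sites of 7 or 8 bases for the unshifted 3p seed were found in CLPX, DNAJA3 and LONP1, against 32.1% of genes. For the start shifted by 1 base they were found in LONP1 as well as HSPD1. For the start shifted by 2 bases they were found in DNAJA3 and GRPEL1, against 17.8% of genes. For the start shifted by 3 bases they were found in CLPX, GRPEL1 and HSPA9, against 28% of genes. The sites of the gene that stood low and that of DNAJA3, which matches the 5p seed by the core and a following A, are shown with their flanks, the word in capitals.
HSPD1 coding, 5p core, first: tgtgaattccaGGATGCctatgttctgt
HSPD1 coding, 5p core, second: actgctttattGGATGCtgctggtgtgg
HSPD1 3′ untranslated, 3p shifted by 1: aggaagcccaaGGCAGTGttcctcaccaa
DNAJA3 3′ untranslated, 5p core and A: cccgggcagtaGGATGCAgccccagaggc

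DNAJA3, the J-domain partner of HSPA9, carries that site on chromosome 16 at 4455740 to 4455746, in 3 of its 4 annotated coding transcripts. It stood at 61.9 and 66.4 TPM with the 5p duplex, 67.6 and 64.3 TPM with the 3p.1 duplex, and 61.2 and 64.7 TPM in control. The groups overlapped in every comparison, and its difference between 5p duplex and control was 0.03 (SE 0.09, interval -0.19 to 0.24, adjusted p = 0.961). HSPA9 has an 8-base 5p site in the 5′ untranslated region of 1 of 5 annotated coding transcripts, and none in the other 4.

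HSPA9 stood at 389 and 359 TPM with the 5p duplex, 339 and 336 TPM with the 3p.1 duplex, and 318 and 338 TPM in control. Both 5p duplex libraries were above the other 4, with a difference from control of 0.19 (SE 0.09, interval -0.02 to 0.39, adjusted p = 0.589). This was the lowest adjusted p of the 8 genes in that comparison and was not called. GRPEL1 stood at 46.2 and 49.99 TPM with the 5p duplex, 45.2 and 50.03 TPM with the 3p.1 duplex, and 39.8 and 46.9 TPM in control. Control replicate 1 was its lowest library, and the difference between 5p duplex and control was 0.15 (SE 0.12, adjusted p = 0.795). TRAP1 stood at 77.5 and 90.9 TPM with the 5p duplex, 90.03 and 99.3 TPM with the 3p.1 duplex, and 78.8 and 90.7 TPM in control. Its groups overlapped throughout, and the difference between 5p duplex and control was -0.01 (SE 0.12, interval -0.30 to 0.28, adjusted p = 0.993).

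Of the proteases, LONP1 stood at 48.4 and 59.6 TPM with the 5p duplex, 51.3 and 58.9 TPM with the 3p.1 duplex, and 45.1 and 50.3 TPM in control. Its 3p.1 duplex libraries lay above the controls, with a difference of 0.20 (SE 0.14, interval -0.12 to 0.53, adjusted p = 0.857). CLPP stood at 61.0 and 79.6 TPM with the 5p duplex, 70.4 and 67.9 TPM with the 3p.1 duplex, and 74.3 and 65.9 TPM in control, so that the 5p duplex libraries spanned all the others. CLPX, the least abundant of the 9 genes, stood at 28.96 and 25.1 TPM with the 5p duplex, 30.2 and 29.3 TPM with the 3p.1 duplex, and 29.3 and 28.9 TPM in control. It differed by -0.10 (SE 0.10, adjusted p = 0.855) between 5p duplex and control and by -0.14 (SE 0.10, adjusted p = 0.784) between the duplexes. The ratio of CLPX to CLPP was 0.475 and 0.315 with the 5p duplex, 0.429 and 0.432 with the 3p.1 duplex, and 0.394 and 0.438 in control.

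Among the 8 genes other than HSPD1, 0 were called between 5p duplex and control, where 0.463% of all genes were called. Between 3p.1 duplex and control 0 were called, against 0.0149% of all genes, and between the duplexes 0, against 0.433%. In each comparison 0 of the 8 had an unadjusted p under 0.05, while 1227, 919 and 1252 of 13400 genes did. Differences of the 8 genes ran from -0.10 to 0.19 (median 0.05) between 5p duplex and control, from -0.02 to 0.20 (median 0.08) between 3p.1 duplex and control, and from -0.17 to 0.15 (median -0.03) between the duplexes; the medians of all genes were -0.03, -0.03 and 0.01. The intervals for 5p duplex against control reached no lower than -0.35 (CLPX) and no higher than 0.49 (LONP1). Groups did not overlap for 2 of the 8 genes (25%) in each comparison: HSPE1 and HSPA9 higher with the 5p duplex than in control, LONP1 and CLPX higher with the 3p.1 duplex than in control, and HSPA9 higher and CLPX lower with the 5p than with the 3p.1 duplex. Over all genes 34.8%, 36.3% and 40.4% did not overlap. The first and second comparison share the control libraries and the first and last the 5p duplex libraries, so they are not independent.

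**Figure D3:**
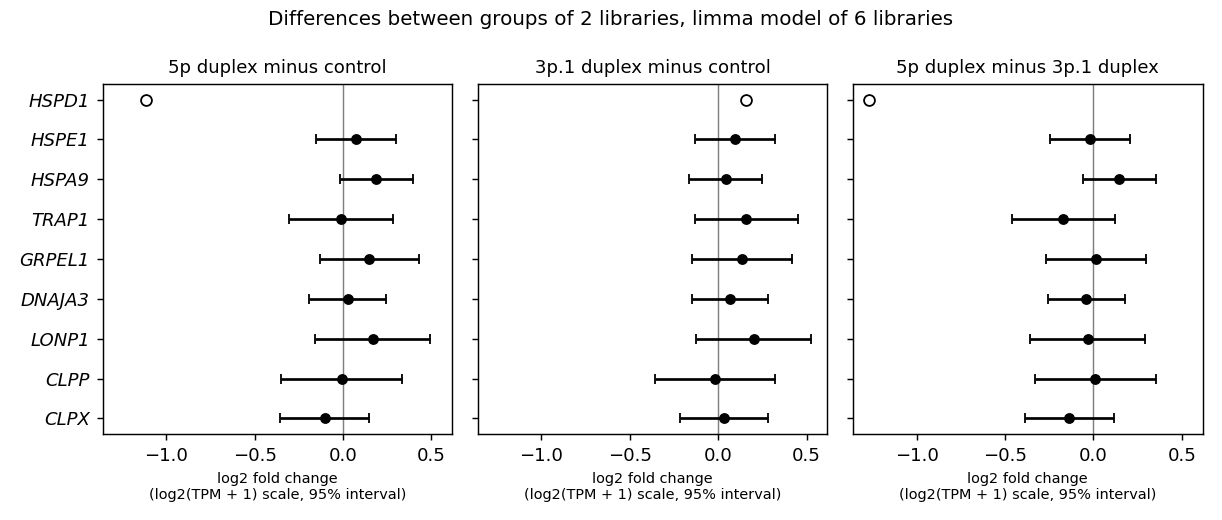
Log2 fold change on the log2(TPM + 1) scale (horizontal axes) of the 9 genes in the 3 comparisons, from a limma model of all 6 libraries; filled points are estimates with 95% intervals as bars, and the open point is HSPD1, shown without an interval since it was chosen for its difference. HSPD1 lies at -1.12 and -1.27 in the comparisons that have the 5p duplex on top and at 0.16 between 3p.1 duplex and control, and the intervals of the other 8 genes include 0 in all 3.

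Reads of these genes can be shared with copies. GENCODE 29 names 17 pseudogenes of HSPD1, 26 of HSPE1 and 1 of HSPA9, and 0 of these symbols are listed in the libraries, so how such reads were assigned is not known. The read-through transcript HSPE1-MOB4 overlaps HSPE1 and stood at 8.05 and 3.55 TPM with the 5p duplex, 9.10 and 5.81 TPM with the 3p.1 duplex, and 7.03 and 10.4 TPM in control, which is uncertain for the same reason. HSPE1 also lies within the annotated span of HSPD1 on the other strand. The library type was stranded, but whether the counting used strand is not given in the sources used here.

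Other genes of mitochondrial import, processing and folding were examined as lists, with the 5p duplex set against control. Of 12 genes of the import motor and inner membrane translocase 0 were called and 7 had positive differences (median 0.03). TIMM21, a translocase subunit, stood at 47.8 ± 0.11 TPM with the 5p duplex and 40.8 ± 2.26 TPM in control (SD, n = 2 each; 0.22, adjusted p = 0.563), and GRPEL2, the other exchange factor of HSPA9, at 20.96 ± 0.89 TPM with the 5p duplex and 18.97 ± 0.59 TPM in control (0.14, adjusted p = 0.771). Of 5 peptidases that trim imported proteins 0 were called (median 0.03), with PITRM1, a presequence protease, at 0.21 and XPNPEP3 at 0.15 (adjusted p = 0.781 and 0.808). Of 10 genes for proteases and a disaggregase of the inner membrane and intermembrane space 0 were called (median -0.01).

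AFG3L2, a subunit of the inner membrane AAA protease that faces the matrix, stood at 60.8 and 61.5 TPM with the 5p duplex, 81.0 and 85.6 TPM with the 3p.1 duplex, and 80.2 and 79.2 TPM in control. Both 5p duplex libraries were its lowest, and the difference from control was -0.38 (SE 0.08, unadjusted p = 0.00315 in limma, adjusted p = 0.155). CLPB, the intermembrane disaggregase, had 0.18 (adjusted p = 0.732). Of 8 other matrix folding and assembly factors 0 were called (median 0.05). ATPAF2, an assembly factor of ATP synthase, stood at 6.15 ± 0.40 TPM with the 5p duplex and 8.50 ± 0.69 TPM in control (-0.41, adjusted p = 0.324), and PPIF, the matrix cyclophilin, at 121 ± 5.65 TPM with the 5p duplex and 139.9 ± 3.66 TPM in control (-0.21, adjusted p = 0.576).

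Regulators of the mitochondrial unfolded protein response were examined because HSPD1 and HSPE1 are its standard reporters. Of 10 regulators 0 were called between 5p duplex and control (median -0.04, 7 negative). KIAA0141, the symbol under which DELE1 is listed, had -0.28 (adjusted p = 0.453) and CEBPB -0.23 (adjusted p = 0.681). ATF4, the transcription factor of the integrated stress response, had 0.10 (adjusted p = 0.786) and ATF5 -0.09 (adjusted p = 0.907). DDIT3 had the highest difference of the 10, 0.31 (adjusted p = 0.683). It stood at 58.3 and 48.1 TPM with the 5p duplex, 56.5 and 41.6 TPM with the 3p.1 duplex, and 45.7 and 39.25 TPM in control. Cytosolic chaperones showed 0 calls among 13 heat shock genes (median 0.03), with HSPA1B at -0.42 (adjusted p = 0.358; its near-identical copy HSPA1A makes it uncertain) and HSPA4 at 0.26 (adjusted p = 0.387). All 8 subunits of CCT, the cytosolic counterpart of the HSPD1 chaperonin, had positive differences of 0.05 to 0.20, with 0 called and CCT7 at 0.20 and CCT3 at 0.17 (adjusted p = 0.563 and 0.634). Over all 7 lists, unadjusted p was under 0.05 in limma for AFG3L2, ATPAF2, KIAA0141, HSPA1B and HSPA4. Of all 13400 genes 1227 had such a p, so nothing about the lists is read from that count.

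With the 3p.1 duplex against control the same 7 lists also held 0 called genes, and 0 to 2 genes per list had an unadjusted p under 0.05 in limma. Of all 13400 genes 919 had such a p in that comparison. Medians were 0.07 for the import list, 0.06 for the peptidases, 0.01 for the membrane proteases, 0.04 for the folding factors, 0.03 for the unfolded protein response regulators, 0.03 for heat shock genes and 0.14 for CCT. IMMP1L, an inner membrane peptidase, stood at 15.7 ± 0.13 TPM with the 3p.1 duplex and 20.9 ± 1.60 TPM in control (-0.39, adjusted p = 0.482), CLPB at 16.1 and 17.9 TPM with the 3p.1 duplex and 13 and 13.05 TPM in control (0.36, adjusted p = 0.591) and TIMM21 at 52.1 ± 3.42 TPM with the 3p.1 duplex and 40.8 ± 2.26 TPM in control (0.34, adjusted p = 0.523). CEBPB and JUN had -0.37 and 0.29 (adjusted p = 0.628 and 0.603). HSPA4 had 0.26 (adjusted p = 0.604), and all 8 CCT subunits had positive differences of 0.06 to 0.20, as with the 5p duplex. Between the duplexes HSPA4 differed by 0.0036 and CCT by a median of 0.01.

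**Figure D4:**
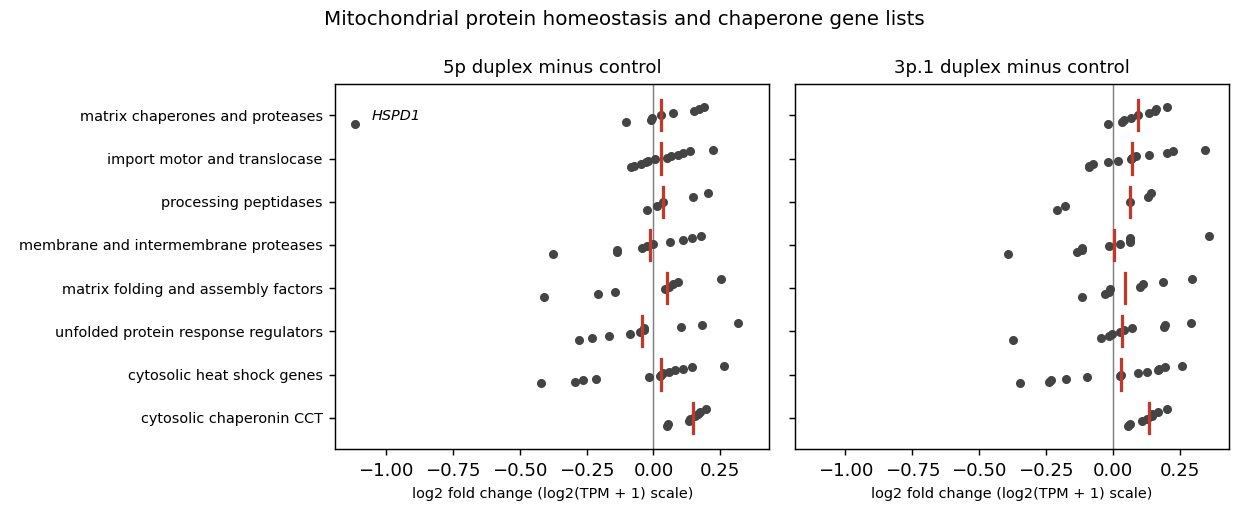
Log2 fold change on the log2(TPM + 1) scale (horizontal axes) of each gene in the matrix chaperone and protease set and 7 further lists, for 5p duplex minus control (left) and 3p.1 duplex minus control (right); points are genes, spread vertically for legibility, and red lines list medians. HSPD1 lies at -1.12 on the left, and the lowest other point on either side is HSPA1B at -0.42 on the left.

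The genes whose profile over the 6 libraries was nearest to that of HSPD1 were sought among 10615 genes outside the set that averaged 5 TPM or more, by the Euclidean distance of log2(TPM + 1) values centred on each gene's mean. They were KCTD20 (distance 0.12), WASF2 (0.18), AXL (0.22), GPD2 (0.27) and RAI14 (0.30), with Pearson r of 0.982 to 0.996 over 6 libraries, which share the same group contrast and so carry no p. KCTD20 stood at 29.2 and 29.8 TPM with the 5p duplex, 66.8 and 75.1 TPM with the 3p.1 duplex, and 63.0 and 73.7 TPM in control. GPD2, a mitochondrial glycerol phosphate dehydrogenase, stood at 14 and 12.5 TPM with the 5p duplex, 35.9 and 31.02 TPM with the 3p.1 duplex, and 30.5 and 31.4 TPM in control. All 5 carry a 7-base site for the 5p seed in the 3′ untranslated region, a region that holds a site of 7 or 8 bases in 14.6% of genes and none in HSPD1. They were picked for a profile that is low with the 5p duplex, so nothing is read from that count. Their regions are 1862 to 3968 bases long, against 465 bases in HSPD1, and hold 3p sites of 7 or 8 bases too, for all 4 starts in WASF2, 3 in KCTD20, 2 in GPD2 and RAI14 and 1 in AXL. None of the other 8 genes came near: the distance to HSPD1 was 1.26 for CLPX, the nearest, and 1.42 for HSPE1.

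**Figure D5:**
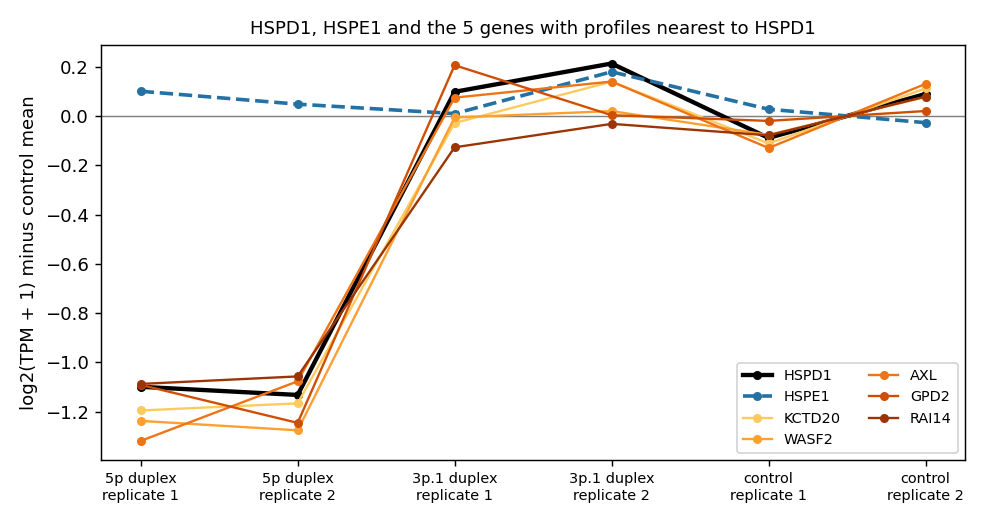
Difference of log2(TPM + 1) from the control mean (vertical axis) in each library, 5p duplex, 3p.1 duplex and control from left to right, for HSPD1 (black), HSPE1 (dashed blue) and the 5 genes with the nearest profiles (yellow to brown). HSPD1 and the 5 genes are low in both 5p duplex libraries, and HSPE1 stays near 0 in all 6.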

How the data were processed

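For each library the authors deposited TPM by gene symbol. RSEM and the build GRCh38 come from lists per the submitters' processing notes; the version, aligner and annotation were not given in the sources used here. Each library listed 18660 to 19070 symbols; 21 to 23 repeated symbols were summed and an unlisted symbol was taken as 0. TPM keeps no read number, so no count test, interval or floor was possible. The 13400 genes that averaged 1 TPM or more were analysed as log2(TPM + 1), which understates changes of low genes, with limma 3.58.1 in R 4.3.3: group means over all 6 libraries, moderated variances with a trend, two-sided, Benjamini-Hochberg adjusted p under 0.05. No exact permutation test was run, since 2 libraries against 2 allow no p lower than 0.333.

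The 9 genes and all lists were chosen with earlier results of these data known. Beside the 9 genes, the text names list members called (up to 4) or else the 2 with the lowest p, and the 5 nearest profiles. ATF4, ATF5, DDIT3 and the markers of other cell types were named after their values were seen. Sites were read from GENCODE 29 on GRCh38, and arm and promoter sequences from RefSeq on GRCh38.p14. Alternatives covered pseudocount, filter, scaling, variance trend, groups fitted, a replicate term and leaving out each library.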

Additional observations from a re-analysis of the deposited data

How the results depend on the processing

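Over 15 alternative fits, HSPD1 ran from -1.20 to -1.03 for 5p duplex against control. It ran from -1.33 to -1.21 for 5p against 3p.1 duplex and from 0.07 to 0.24 for 3p.1 duplex against control. HSPD1 was chosen for its difference, so these ranges are a description and no support. Changes of filter, variance trend or groups fitted cannot move its estimate, which stayed at -1.12 for 5p duplex against control. Of the other 8 genes 0 were called in any of the 15 fits. For 5p duplex against control the signs of TRAP1 (-0.12 to 0.10), CLPP (-0.20 to 0.18) and DNAJA3 (-0.02 to 0.08) turned in some fits. Leaving out 1 library moved GRPEL1 between 0.03 and 0.27, LONP1 between 0.02 and 0.32, CLPX between -0.20 and -0.0048 and HSPA9 between 0.13 and 0.24 in that comparison. The number of genes called among all genes, which sets the background share, moved with the fit. It was 62, 2 and 58 for 5p duplex against control, 3p.1 duplex against control and 5p against 3p.1 duplex. In the same order it was 9, 0 and 5 with no filter on low values, 11, 18 and 19 with only the 2 groups compared, and 367, 30 and 278 with a replicate block. Without a variance trend the first and last were 33 and 5, and with a pseudocount of 5 the middle one was 0. Leaving out 1 library gave 7 to 128, 5 to 94 and 7 to 26; a lone sample is then assumed to vary like the other groups. For 5p duplex against control the count was 128 without control replicate 1, 19 without control replicate 2, 7 without 5p duplex replicate 1, 28 without 5p duplex replicate 2 and 12 without either 3p.1 duplex library; the cause was not tested. The difference of replicate 2 from replicate 1 correlated across genes at 0.27 to 0.38 between groups, but the labels tie the numbers to no batch and there are 2 numbers only, so whether they mark a shared batch is not known and the fit without the block is the one reported. With the replicate block, 3 genes of the 7 further lists passed, all in limma. HSPA1B passed for 5p duplex against control (-0.42, adjusted p = 0.0387). AFG3L2 (-0.44, adjusted p = 0.0390) and ATPAF2 (-0.60, adjusted p = 0.0375) passed for 5p against 3p.1 duplex. Of 13400 genes, 367 passed with the block for 5p duplex against control and 278 for 5p against 3p.1 duplex. Nothing about the lists is therefore read from these 3 genes. Depth is unknown, and small differences of low genes such as CLPX are limited by 2 libraries per group.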

Other observations

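Set directly against the 3p.1 duplex, the 5p duplex had no called gene among the 7 further lists in the limma fit without the replicate block. Adjustment was over 13400 genes, and 0 to 2 genes per list had an unadjusted p under 0.05. Of the 13400 genes 1252 had such a p in that comparison. The lowest adjusted p was that of AFG3L2, the inner membrane AAA protease subunit, at 61.2 ± 0.45 TPM with the 5p duplex and 83.3 ± 3.31 TPM with the 3p.1 duplex (SD, n = 2 each; log2 -0.44, SE 0.08, adjusted p = 0.146). ATPAF2, the ATP synthase assembly factor, stood at 6.15 ± 0.40 TPM with the 5p duplex and 9.80 ± 0.27 TPM with the 3p.1 duplex, a difference of -0.60 (adjusted p = 0.175), PPIF at 121 ± 5.65 TPM with the 5p duplex and 152 ± 10.6 TPM with the 3p.1 duplex, a difference of -0.32 (adjusted p = 0.327). TIMM44, the membrane anchor of the HSPA9 import motor, stood at 34.3 ± 0.80 TPM with the 5p duplex and 42.02 ± 0.03 TPM with the 3p.1 duplex, a difference of -0.29 (adjusted p = 0.352), and JUN had a difference of -0.33 (adjusted p = 0.342). XPNPEP3 was the other way, at 7.56 ± 0.67 TPM with the 5p duplex and 5.82 ± 0.11 TPM with the 3p.1 duplex, a difference of 0.33 (adjusted p = 0.476).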
